A study of Homo sapiens with 24 samples.

Results

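The 10 genes of catecholamine handling described here were followed through RNA sequencing of the SH-SY5Y line, which was established from a human neuroblastoma, a tumour of the sympathetic lineage. They were chosen by their textbook roles, with earlier results of these data known, and matched by symbol. They cover synthesis (TH, DDC, DBH and GCH1), vesicle storage (SLC18A1, SLC18A2), uptake (SLC6A2), breakdown (MAOA) and granule cargo (CHGA, CHGB). These are 10 of the 26485 genes in the count table, and 9 of them passed the filter on low counts that left 14654 genes for testing. The 24 libraries fall into 8 groups of 3, all of the same line with no genetic change named in the labels. Cells were harvested at 4 h either untreated (4 h control) or after copper chloride (copper). The other groups were harvested at 24 h, either untreated (24 h control) or after dextran-catechin (DC), the polyamine TEPA, interferon gamma (IFN), DC with IFN, or TEPA with IFN. The study describes DC and TEPA as chelators of copper, so the design asks how copper supply and IFN, alone or together, act on these cells. The labels give no doses and do not say that the 3 libraries of a group came from separate cultures, so p-values measure the spread between libraries, which may be technical. The data come from 1 cell line, and in bulk RNA fewer cells with a transcript and less transcript per cell cannot be told apart.

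Catecholamines are made from tyrosine. Tyrosine hydroxylase (TH), which needs the tetrahydrobiopterin whose synthesis begins with GCH1, makes L-DOPA, DDC turns L-DOPA into dopamine, and DBH, a copper enzyme inside the granule, turns dopamine into noradrenaline. The vesicular monoamine transporters SLC18A1 and SLC18A2 load the granule, chromogranins A and B (CHGA, CHGB) are its main soluble proteins, SLC6A2 takes noradrenaline back up from outside the cell, and monoamine oxidase A (MAOA) on the mitochondrial surface breaks the amines down.

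Library totals ran from 24569980 to 35372442 counts. Levels are given as CPM, the counts divided by the scaled library total and multiplied by 1e+06. Differences are log2 fold changes from edgeR's quasi-likelihood test with Benjamini-Hochberg adjustment over all tested genes, and a gene is called at an adjusted p under 0.05. Of the markers checked, 6 sympathetic neuroblastoma genes summed to 1851 to 2455 CPM in each library and 5 mesenchymal neuroblastoma genes to 68.3 to 118 CPM. The 5 Schwann cell markers summed to 3.44 to 5.40 CPM and the 3 leukocyte markers to 0.0417 to 0.698 CPM, with CD3E at 0 counts. The 4 fibroblast genes summed to 405 to 619 CPM. Libraries of the same group also differed along a trend with GC content, written here as the GC difference, which sets GC-rich genes (fraction over 0.6) against GC-poor ones (below 0.4) as the difference of their median log2 deviations. It ran from -1.38 to 1.41 in the 4 h control libraries, from -0.996 to -0.37 in the 24 h control libraries and from -0.12 to 0.93 in the IFN libraries, so the latter groups do not overlap in it.

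The transcript of the first enzyme of the synthesis pathway was close to undetected, so that the name catecholamine synthesis holds only for the later steps. TH (chromosome 11, 2163929 to 2171877 on GRCh38) had 5 counts among 721393008 in all libraries, 1 count in each of 5 libraries. The copper, TEPA, DC with IFN and TEPA with IFN groups had 0 counts, which allows up to 0.0351, 0.0305, 0.0349 and 0.0332 CPM per group by a limit of 3 counts that covers counting error only. TH was therefore not tested in any comparison. Its longest coding transcript has a GC content of 66.1%, the highest of the 10 genes. What follows describes the machinery downstream of and around a synthesis step whose transcript was at or under the limit of detection.

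Per kilobase of the longest coding transcript, the 9 other genes in the 24 h control libraries took a clear order only at the lower end. CHGB was highest at 112 ± 13.8 CPM per kb (SD, n = 3), followed by SLC6A2 at 89.8 ± 9.19 and GCH1 at 85.5 ± 5.70. The libraries of CHGB and SLC6A2 overlap, and SLC6A2 and GCH1 differed by less than their spread. DDC (39.0 ± 2.43), CHGA (38.1 ± 3.80), SLC18A1 (33.2 ± 5.02) and DBH (27.1 ± 10.2) formed a middle group in which neighbours were within their spread. MAOA at 10.5 ± 1.13 and SLC18A2 at 3.88 ± 0.485 CPM per kb were lowest, so the vesicular transporter SLC18A1 was the more abundant of the pair. DBH was also the least steady of the 9, with its highest library 8.01 times its lowest over all 24, against 1.52 to 4.00 times for the others.

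The calls among the 9 tested genes lay mostly in the comparisons with IFN. With IFN at 24 h 4 of 9 were called (DDC, SLC18A2 and MAOA lower, CHGB higher), where 18.8% of all genes tested were called, 10% higher and 8.8% lower. With DC also present IFN again gave 4 of 9, 1 higher and 3 lower, against 9.82% of all genes (6.16% higher, 3.66% lower). With TEPA present it gave 4 of 9, all lower, against 14.2% (6.89% lower). Those 3 comparisons share no libraries with one another. The median log2 change of the 9 was -0.27 with IFN and -0.32 with IFN in the presence of DC, beside 0.01 over all genes in both. Copper at 4 h gave 1 of 9, lower, against 5.85% (3.2% lower), and TEPA in the presence of IFN gave 2 of 9, both lower, against 1.9% (1.15% lower). DC gave 0 of 9 against 0.0136%, DC with IFN present 0 of 9 against 0.0205%, and TEPA alone 0 of 9 against 1.06%. In edgeR the genes at an unadjusted p under 0.05 among the 9 numbered 0 for DC, 0 for DC with IFN present and 2 for TEPA, and DESeq2 called 0 members in each of the same comparisons. The 24 h control against the 4 h control gave 0 of 9, where 9.69% of all genes were called, 2 members were at an unadjusted p under 0.05, and DESeq2 called 1, which was DBH, beside 18.2% of all genes. Over all genes the counts depended on single libraries in several comparisons. IFN had 2761 genes called but 1707 to 1821 without 24 h control 1, IFN 1 or IFN 2, and 24 h against 4 h had 1420 but 7375 without 4 h control 1. Groups without overlap were common over all genes, at 57.1% of genes with IFN, 32.1% with IFN in the presence of DC, 29.8% with IFN in the presence of TEPA, 22.1% with TEPA in the presence of IFN and 12.7% with copper. The tests of whether a chelator changed the IFN effect called 0 members and 0 genes (0%) in edgeR for DC and for TEPA, where 142 and 205 genes and 0 and 1 members were at an unadjusted p under 0.05, and DESeq2 called 2 and 0 genes. Among the markers, IFN at 24 h had 1 of 6 sympathetic ones higher and 1 lower, and 0 mesenchymal, Schwann cell, fibroblast or leukocyte ones called in edgeR. With TEPA in the presence of IFN 1 of 4 tested mesenchymal markers was higher, and with IFN in the presence of TEPA 1 of 3 tested Schwann cell markers and the 1 tested leukocyte marker were lower. Levels differed within the marker lists. Over the group means the mesenchymal marker PRRX1 was at 0.0118 CPM or less, yet YAP1 had 53.1 to 68.2 CPM, SNAI2 10.2 to 21.3 CPM and CD44 9.25 to 13.8 CPM. The Schwann cell marker SOX10 was at 0.0331 CPM or less and S100B at 2.13 to 2.9 CPM. All 4 fibroblast markers were present, with COL3A1 at 271 to 359 CPM, LUM at 101 to 206 CPM, DCN at 35.9 to 59.96 CPM and COL1A1 at 2.39 to 4.57 CPM. The leukocyte marker CD3E had 0 counts and PTPRC at most 0.538 CPM. The part of the marker changes in the members' differences was not tested.

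**Figure D1:**
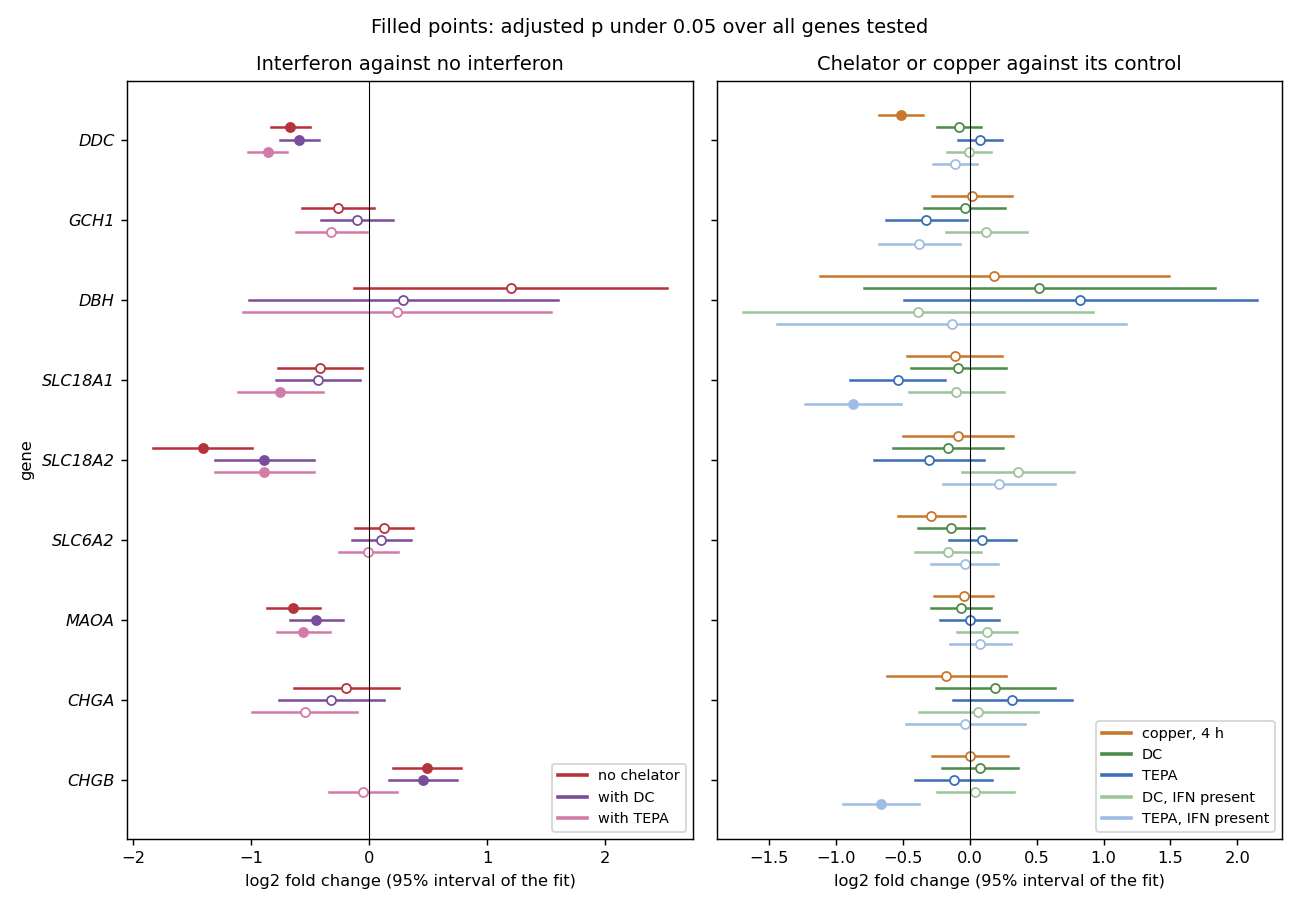
Log2 fold changes of the 9 tested genes (x axis) with their 95% intervals from the fit; the left panel gives IFN against no IFN without a chelator, with DC and with TEPA, and the right panel gives copper, DC and TEPA against their controls. SLC18A2, DDC and MAOA lie below 0 in all 3 IFN comparisons, while the DBH intervals are the widest.

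DDC, the enzyme that makes dopamine, was lower in every library with IFN than in every library without IFN harvested at the same time. DDC lies on the minus strand of chromosome 7 (50458436 to 50565457), where it shares its strand with the overlapping gene FIGNL1 and is opposite the antisense gene DDC-AS1. RefSeq on GRCh38.p14 has DDC transcription starts at 2 positions in the table used, and the stretch before each is printed because DDC was the member called in the most comparisons. Both stretches were searched, as were those printed further on, for the interferon motifs GAS (TTCNNNGAA) and ISRE (GAAA followed by GAAA with 2 bases between) and for the cAMP response element CRE (TGACGTCA) on both strands. Capitals would mark a matched motif, and neither window holds one.
DDC promoter, inner start, chr7:50561072-50561321, minus strand: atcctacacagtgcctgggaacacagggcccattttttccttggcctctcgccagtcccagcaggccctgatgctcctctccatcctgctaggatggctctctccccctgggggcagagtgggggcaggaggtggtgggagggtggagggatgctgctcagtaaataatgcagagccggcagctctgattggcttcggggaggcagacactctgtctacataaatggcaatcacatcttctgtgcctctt
DDC promoter, outer start, chr7:50565450-50565655, minus strand: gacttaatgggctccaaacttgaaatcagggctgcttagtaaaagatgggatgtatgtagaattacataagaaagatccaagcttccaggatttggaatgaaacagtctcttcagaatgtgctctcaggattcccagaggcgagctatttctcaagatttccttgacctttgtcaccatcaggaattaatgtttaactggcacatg

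The 24 h control libraries had 80.5, 84.0 and 74.2 CPM of DDC, and the IFN libraries 46.1, 51.0 and 52.9 CPM. DDC fell to 0.628 of the control level with IFN (log2 -0.67, SE 0.08, adjusted p = 3.39e-06 in edgeR). With DC present it went from 76.3, 74.2 and 74.9 CPM to 47.0, 49.6 and 52.7 CPM, and with TEPA from 81.9, 88.0 and 81.9 CPM to 41.8, 46.6 and 50.3 CPM. The groups do not overlap in any of these pairs. The corresponding log2 changes were -0.59 (SE 0.08, adjusted p = 2.00e-05) and -0.86 (SE 0.08, adjusted p = 1.18e-07) in edgeR. The IFN calls of DDC held with the GC trend removed (-0.69, -0.62 and -0.89). DC and TEPA without IFN had -0.08 (95% interval -0.25 to 0.08) and 0.08 (-0.09 to 0.24).

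DDC was also lower with copper at 4 h. The 4 h control libraries had 85.0, 87.8 and 95.6 CPM and the copper libraries 59, 65.2 and 63.4 CPM, again without overlap. The log2 change was -0.52 (SE 0.08, adjusted p = 2.88e-04 in edgeR), the 1 call among the 9 genes. Fitted on only the 6 libraries compared it was -0.47 with an adjusted p of 0.301. With the replicate numbers as a block, by which the copper libraries pair, DDC stayed called (-0.47, adjusted p = 0.00232) and SLC6A2 was called as well (-0.24, adjusted p = 0.0136), so that 2 of 9 members were called, where that fit called 18.3% of all genes. Of the marker genes, 1 of 6 sympathetic ones was lower with copper and 2 of 4 tested mesenchymal ones were higher, with the 5 mesenchymal markers summing to 84.8 to 118 CPM in the 4 h control and 92.1 to 117 CPM in the copper libraries, and their part in the DDC result was not tested. FIGNL1, between which and DDC the counting may divide reads where the genes overlap, had -0.38 with copper (adjusted p = 0.308) and -0.39 with IFN (adjusted p = 0.119).

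GCH1 (chromosome 14, 54842008 to 54902852), the first enzyme of tetrahydrobiopterin synthesis, was called in none of the comparisons in the edgeR fit over all 24 libraries without removal of the GC trend. Its level ran from 239 to 271 CPM in the 24 h control libraries, from 173 to 230 CPM with TEPA and from 154 to 168 CPM with TEPA and IFN. The TEPA with IFN libraries lie below all 3 IFN libraries (196 to 217 CPM). The log2 changes were -0.32 with TEPA (SE 0.14, adjusted p = 0.46) and -0.38 with TEPA in the presence of IFN (SE 0.14, adjusted p = 0.246). With IFN it was -0.27 (SE 0.14, adjusted p = 0.167, and 0.0178 on only the libraries compared, where 47.8% of all genes were called). Over all the alternative fits of that comparison the change ran from -0.31 to -0.07, and with the GC trend removed it was not called. GCH1 followed the GC difference inversely: over within-group deviations of the 24 libraries, Pearson's r was -0.954 and Spearman's rho -0.906. The permutation p for r was 1e-05, the smallest that the permutations can give (adjusted p = 1e-04 over 10 such relations), the p for rho was 5e-05 (adjusted 0.00025), and r was -0.926 without the 2 libraries farthest from the median. After removal of each library's GC trend, GCH1 was called with TEPA (-0.28, SE 0.06, adjusted p = 0.00245 in edgeR), with TEPA in the presence of IFN (-0.39, SE 0.06, adjusted p = 8.90e-05) and with IFN in the presence of TEPA (-0.18, adjusted p = 0.0174). That fit called 9.44%, 13.6% and 29.3% of all genes in these comparisons. A fit with the replicate block also called GCH1 with TEPA (-0.32, adjusted p = 0.0343) and with IFN in the presence of TEPA (-0.30, adjusted p = 0.0212). This makes 2 and 5 of 9 members called in those comparisons, whose numbers pair the libraries. The block called 1.78% of all genes with TEPA and 30.7% with IFN in the presence of TEPA.

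DBH (chromosome 9, 133635348 to 133659344, opposite the antisense gene DBH-AS1), the copper-dependent enzyme of noradrenaline synthesis, spread widely within groups. None of its differences was called in the edgeR fit over all 24 libraries. The 24 h control libraries had 80.2, 147 and 79.8 CPM, and the IFN libraries 251, 283 and 171 CPM. The IFN libraries all lie above the controls, yet the log2 change of 1.2 (SE 0.63, 95% interval -0.13 to 2.53) had an adjusted p of 0.157 in edgeR. Fitted on only the 6 libraries compared it was called (1.19, adjusted p = 0.00646), where 47.8% of all genes were called. With DC present IFN gave 138, 135 and 264 CPM against 126, 241 and 72.4 CPM, and with TEPA 185, 260 and 196 CPM against 88.3, 359 and 96.6 CPM, and both pairs overlap. The log2 changes there were 0.29 (SE 0.63) and 0.24 (SE 0.62). Copper had 148, 379.7 and 579.9 CPM against 81.3, 341 and 555 CPM in the 4 h controls, where each library tracks the one of the same number, and the log2 change was 0.18 (SE 0.62, 95% interval -1.13 to 1.49). By those pairs DBH was higher in 3 of 3, and with the replicate block the change was 0.39 (SE 0.14, adjusted p = 0.0966 in edgeR). The block together with removal of the GC trend called DBH with copper (0.20, adjusted p = 0.0242 in edgeR, where 34% of all genes were called) and with TEPA, whose libraries also pair (0.39, adjusted p = 0.0279, where 17.1% were called).

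Within groups DBH had the largest correlation with the GC difference of the 10 genes examined, which were the 9 members with counts and MAOB. Pearson's r was 0.978 and Spearman's rho 0.959 over the 24 libraries (permutation p = 2e-05 and 5e-05, adjusted 1e-04 and 0.00025), and r was 0.969 without the 2 farthest libraries. DBH has a GC content of 60.7%. CHGA (62.4%) also rose and fell with the GC difference (r = 0.825, rho = 0.745, permutation p = 0.00224 and 0.00455, adjusted 0.0048 and 0.0098), and SLC18A2 (42.3%) went the other way (r = -0.818, rho = -0.773, permutation p = 0.00163 and 0.00155, adjusted 0.0048 and 0.00517). Without the 2 farthest libraries these were 0.748 and -0.755. SLC18A1, at a middle GC content of 50.1%, also rose and fell with the GC difference (r = 0.649, rho = 0.663, permutation p = 0.0024 and 0.0049, adjusted 0.0048 and 0.0098). Its r was 0.606 without the 2 farthest libraries. MAOB (48.6%) went the other way and passed for r only (r = -0.487, rho = -0.508, permutation p = 0.0252 and 0.0353, adjusted 0.042 and 0.0588). Once the GC trend was removed, the SE of the IFN difference of DBH went from 0.63 to 0.29, and the difference itself to 0.45 (adjusted p = 0.247). The 5 tested genes whose 8 group means ran most like those of DBH were EMD (Pearson's r 0.997), PKMYT1 (0.996), CLCN7 (0.995), STK11IP (0.995) and TJAP1 (0.993), given as a description over 8 points, and their GC contents run from 55.4% to 66.2%.

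**Figure D2:**
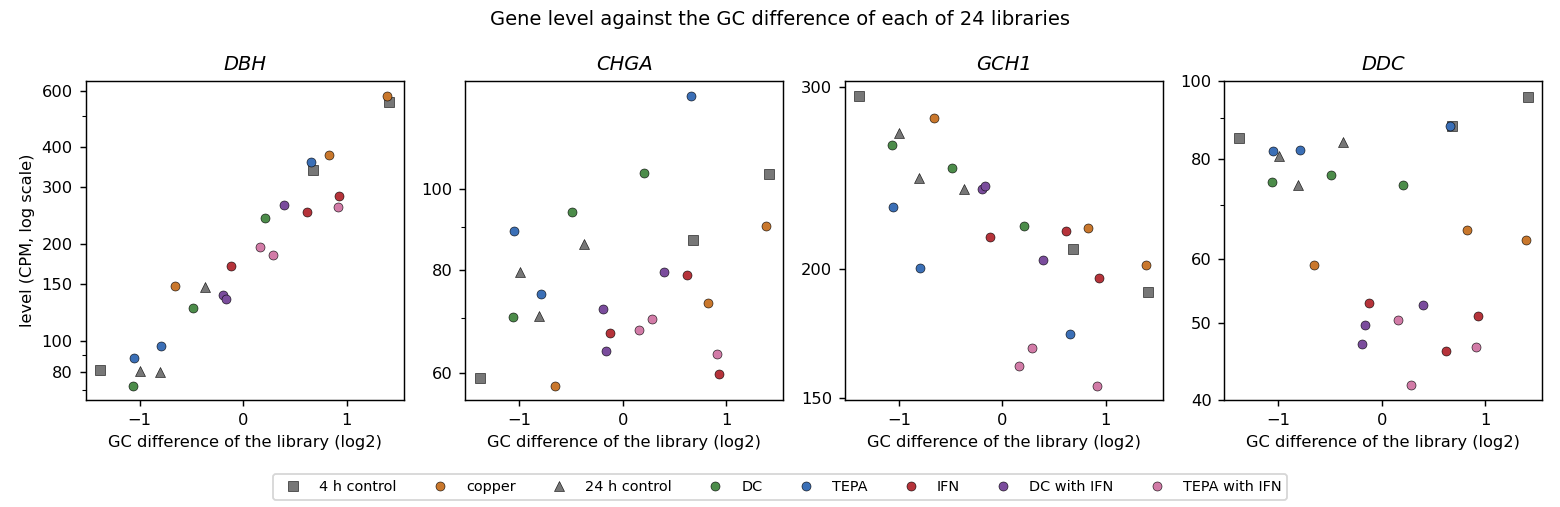
Level in CPM (y axes, log scale) of DBH, CHGA, GCH1 and DDC against the GC difference of the library (x axes, log2), with 1 point per library coloured by group. DBH rises with the GC difference and GCH1 falls with it (within groups r = 0.978 and -0.954).

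Of the vesicular monoamine transporters, SLC18A2 was called in all 3 IFN comparisons. SLC18A2 (chromosome 10, 117241073 to 117279430), which loads dopamine and noradrenaline into granules, had the largest log2 decrease of the members called with IFN. The stretch before its start is printed because it holds a CRE in capitals, TGACGTCA, a motif found in 1.65% of 35116 RefSeq promoter windows of 250 bases. GAS and ISRE, found in 6.57% and 3.02% of those windows, were not in it. The CRE is not particular to SLC18A2. The member CHGA also has one in its full window of 250 bases, past the 188 bases kept after the cut at its exon. A match is a description of letters only.
SLC18A2 promoter, chr10:117240864-117241080, plus strand: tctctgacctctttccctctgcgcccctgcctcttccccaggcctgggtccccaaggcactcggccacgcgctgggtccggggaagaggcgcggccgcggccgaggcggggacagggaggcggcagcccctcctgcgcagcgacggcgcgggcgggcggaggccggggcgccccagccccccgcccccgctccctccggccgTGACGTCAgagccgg

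SLC18A2 stood at 16.3, 12.9 and 15.9 CPM in the 24 h control libraries and at 4.34, 6.22 and 6.36 CPM with IFN, with no overlap. It fell to 0.376 of the control level (log2 -1.41, SE 0.20, adjusted p = 3.94e-05 in edgeR). With DC it went from 12.8, 13.0 and 14.5 CPM to 7.67, 7.30 and 6.76 CPM with IFN added (-0.89, SE 0.20, adjusted p = 0.00495 in edgeR), and with TEPA from 14.2, 9.29 and 13.0 CPM to 6.73, 6.05 and 6.88 CPM (-0.89, SE 0.20, adjusted p = 0.00406). These groups do not overlap either, and with the GC trend removed the calls held (-1.20, -0.80 and -0.73). SLC18A2 rests on 124 to 550 counts a library at 24 h. The gene PDZD8, which overlaps SLC18A2 on the other strand, was called lower in the same comparisons (-0.73, -0.56 and -0.50), and as the strand setting of the counting is not given in the sources used here, reads from the overlap cannot be assigned.

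SLC18A1 (chromosome 8), the transporter typical of endocrine cells, was lower when TEPA was given on top of IFN. The IFN libraries had 69.2, 73.3 and 77.4 CPM and the TEPA with IFN libraries 32.7, 38.6 and 48.7 CPM, with no overlap. It fell to 0.546 of the IFN level (log2 -0.87, SE 0.17, adjusted p = 0.0102 in edgeR). Without IFN replicate 3, TEPA with IFN replicate 1 or TEPA with IFN replicate 2 the call was lost (adjusted p = 0.0533, 0.102 and 0.0709). The TEPA libraries without IFN had 57.2, 85.9 and 59.2 CPM, from which SLC18A1 fell with IFN added (log2 -0.75, SE 0.17, adjusted p = 0.00476 in edgeR; 0.0837 on only the libraries compared). IFN alone had -0.42 (adjusted p = 0.084, and 0.0151 on only the libraries compared, where 47.8% of all genes were called). TEPA alone had -0.54 (SE 0.17, adjusted p = 0.173), from 91.7, 115 and 87.7 CPM in the 24 h controls. SLC18A1 was called, with the GC trend removed, for TEPA (-0.54, adjusted p = 0.0358), for IFN (-0.46, adjusted p = 0.0339) and for IFN in the presence of DC (-0.47, adjusted p = 0.0382). That fit called 9.44%, 32.8% and 23.2% of all genes in these comparisons. The paired block called SLC18A1 with TEPA (-0.54, adjusted p = 0.0225), where 1.78% of all genes were called. The difference between TEPA's effects with and without IFN was -0.33 (SE 0.24, 95% interval -0.84 to 0.17), not called.

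SLC6A2 (chromosome 16, 55655604 to 55706192), the noradrenaline transporter, was called only with copper, in the 2 edgeR fits with the replicate block. The block alone is given above. With the GC trend also removed SLC6A2 had -0.31 (adjusted p = 0.0036 in edgeR), where 34% of all genes were called. Its levels ran from 257 to 389 CPM across the 24 libraries. Its log2 difference was 0.13 with IFN (95% interval -0.12 to 0.37), -0.14 with DC (-0.39 to 0.11) and 0.09 with TEPA (-0.15 to 0.34). With copper it had -0.29 (SE 0.12, adjusted p = 0.208), from 356, 356 and 380.0 CPM to 273, 307 and 313 CPM, which do not overlap.

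**Figure D3:**
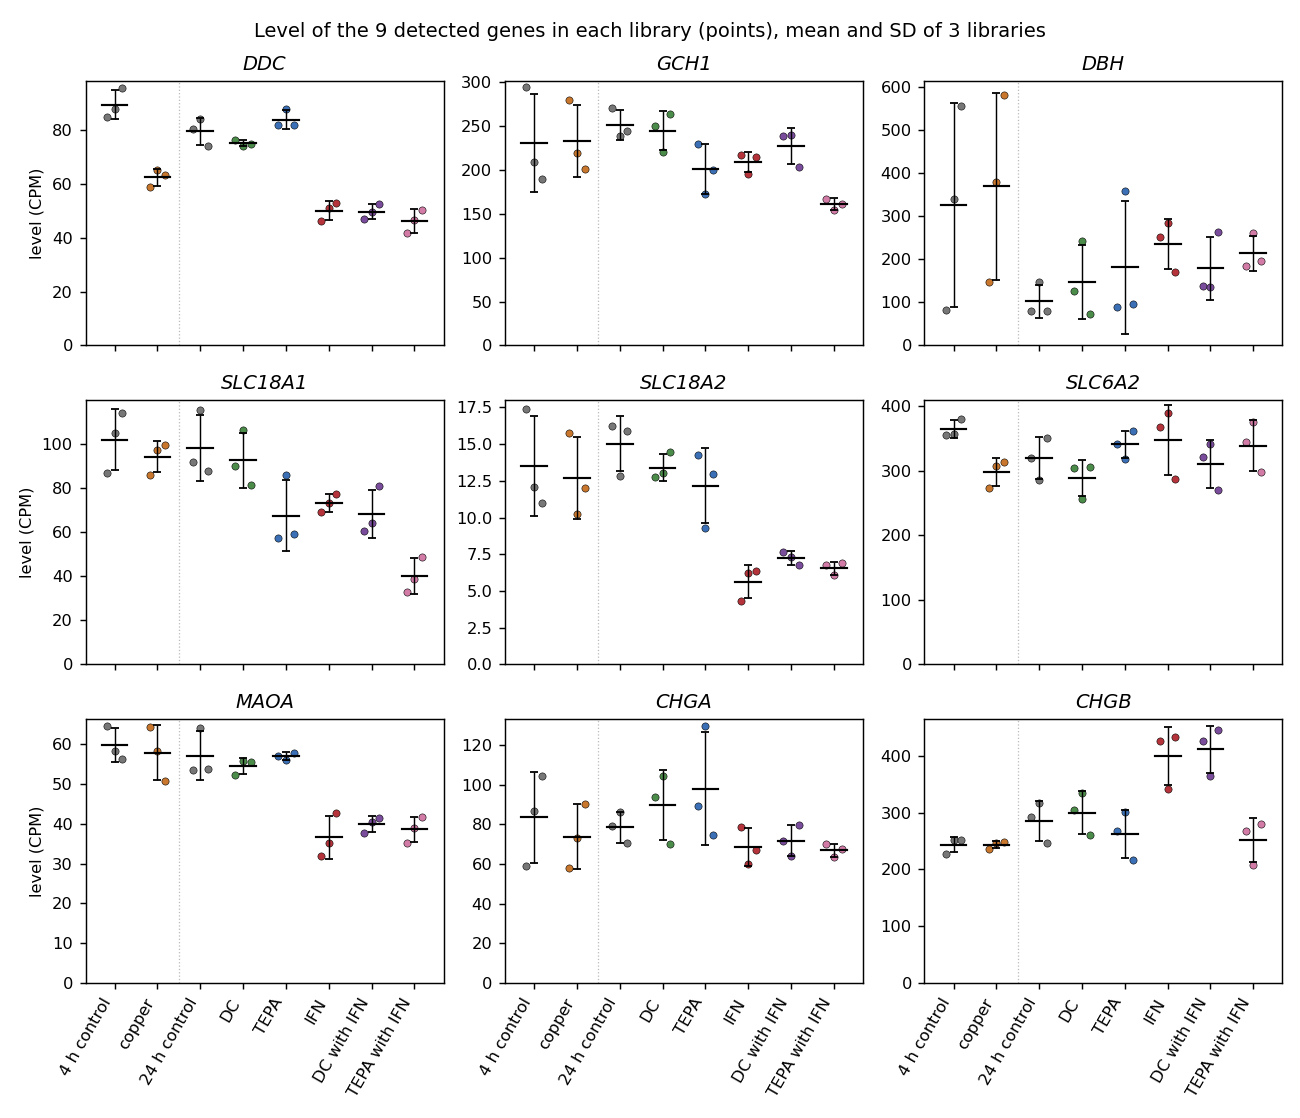
Level in CPM (y axes, from 0) of each of the 9 genes with counts, with 1 point per library and the mean and SD of the 3 libraries of each group. DDC, SLC18A2 and MAOA are lower in all 3 groups with IFN than in the 24 h groups without it; DBH varies between libraries of a single group by as much as between groups.

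MAOA (chromosome X, 43654907 to 43746824) oxidises noradrenaline and serotonin in preference to other amines. The 24 h control libraries had 53.4, 64.1 and 53.7 CPM and the IFN libraries 32.0, 35 and 42.6 CPM, without overlap. It fell to 0.641 of the control level with IFN (log2 -0.64, SE 0.11, adjusted p = 2.36e-04 in edgeR). With DC present it had -0.45 (SE 0.11, adjusted p = 0.00827), from 52.3, 55.8 and 55.4 CPM to 37.7, 40.5 and 41.5 CPM, and with TEPA -0.56 (SE 0.11, adjusted p = 0.00103), from 57.0, 56.0 and 57.9 CPM to 35.3, 38.9 and 41.7 CPM. These calls held with the GC trend removed (-0.58, -0.43 and -0.53). DC, TEPA and copper without IFN had intervals of -0.29 to 0.16, -0.23 to 0.22 and -0.27 to 0.18 for MAOA, and none was called.

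MAOB, the neighbouring paralogue on the same chromosome (43766611 to 43882447), went the opposite way. It comes from the list of other pathway genes described further on, and the stretch before its start is printed since it had the largest rise of that list. The letters of GAS, ISRE and CRE are not in it.
MAOB promoter, chrX:43882451-43882700, minus strand: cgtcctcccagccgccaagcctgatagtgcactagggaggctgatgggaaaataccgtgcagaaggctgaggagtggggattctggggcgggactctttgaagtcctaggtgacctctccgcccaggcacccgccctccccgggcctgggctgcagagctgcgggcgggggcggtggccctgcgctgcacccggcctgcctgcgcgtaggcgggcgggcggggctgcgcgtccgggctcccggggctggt

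Across the 15 libraries without IFN, MAOB ran from 0.61 to 3.74 CPM with a median of 2.17 CPM, and across the 9 with IFN from 28.6 to 47.7 CPM with a median of 35.2 CPM. The log2 change was 4.42 (SE 0.29, adjusted p = 5.86e-10 in edgeR) with IFN alone, a 21.4-fold rise. With DC and TEPA present it was 4.44 (SE 0.29) and 5.12 (SE 0.31). Per kilobase MAOB was at 0.0662 times MAOA in the 24 h control and at 2.22 times in the IFN group, so the order of the pair by length-scaled level is reversed in IFN. The means of MAOA and MAOB add up to 11.2 CPM per kb in the 24 h control and to 21.7 CPM per kb in the IFN group. TEPA alone put MAOB at 0.846, 0.61 and 1.33 CPM against 1.63, 1.54 and 2.17 CPM in the controls (log2 -0.94, SE 0.30, adjusted p = 0.171).

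**Figure D4:**
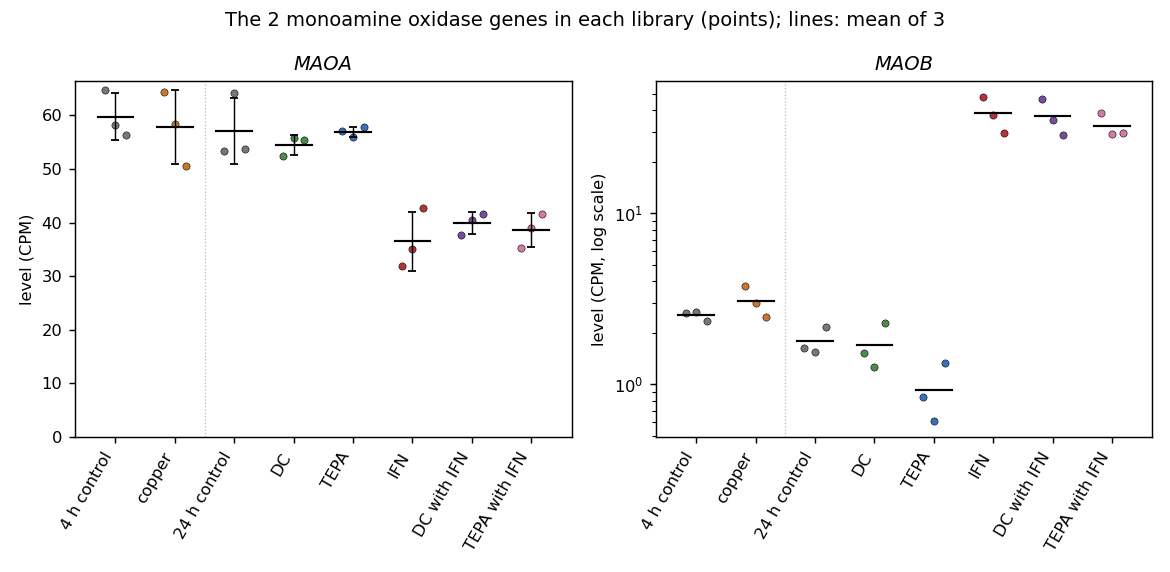
Level of MAOA (left, linear axis from 0, with the mean and SD of 3 libraries) and MAOB (right, log axis, with the mean only) in CPM, 1 point per library. MAOA is lower and MAOB higher in every IFN library than in every library without IFN.

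Of the chromogranins CHGB was called and CHGA was not in the edgeR fit over all 24 libraries without removal of the GC trend. CHGB (chromosome 20, 5911430 to 5925361), a granule matrix protein, rose with IFN from 292, 316 and 247 CPM to 426, 341 and 433 CPM (log2 0.49, SE 0.14, adjusted p = 0.0170 in edgeR). With DC present it rose from 305, 335 and 260.1 CPM to 425, 365 and 445 CPM (0.46, SE 0.14, adjusted p = 0.0381). Neither pair overlaps. With TEPA present the IFN difference was -0.05 (95% interval -0.34 to 0.23), with 268, 208 and 281 CPM against 268, 301 and 217 CPM. With TEPA added to IFN, CHGB fell to 0.631 of the IFN level (log2 -0.66, SE 0.14, adjusted p = 0.0139 in edgeR), and those libraries do not overlap. The difference of the IFN effects with and without TEPA was -0.54 (SE 0.19, unadjusted p = 0.0113 in edgeR, adjusted p = 1).

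The CHGB calls were lost in several of the fits without 1 library, while the size of the change stayed near that of the full fit. The IFN call was lost in 4 of the 6 fits that left out a library (24 h control 1 or 3, IFN 1 or 3, log2 changes 0.39 to 0.49, adjusted p = 0.0625, 0.114, 0.0949 and 0.0616), the IFN with DC call in 4 of 6 (DC 1 or 3, DC with IFN 1 or 3, log2 changes 0.34 to 0.45, adjusted p = 0.141, 0.278, 0.165 and 0.194), and the TEPA call in IFN in 4 of 6 (IFN 1 or 3, TEPA with IFN 1 or 2, log2 changes -0.54 to -0.71, adjusted p = 0.0791, 0.0784, 0.0528 and 0.116). The IFN with DC call was also lost without the filter on low counts (adjusted p = 0.0541), and the TEPA call on only the libraries compared (0.0817). With the replicate block the IFN with DC call was lost (0.46, adjusted p = 0.171 in edgeR). With the block and removal of the GC trend together the IFN call was lost (0.34, adjusted p = 0.0594). The numbers do not pair the libraries of either comparison. With the GC trend removed and no block the 3 calls held (0.34, 0.38 and -0.68). The correlation of CHGB with the GC difference did not pass the test (r = 0.276, rho = 0.218, permutation p = 0.184 and 0.36, adjusted 0.205 and 0.4).

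CHGA (chromosome 14, 92923080 to 92935293), the chromogranin used as a marker of neuroendocrine tissue, was not called in any comparison in edgeR without removal of the GC trend. Its libraries ran from 70.4 to 86.0 CPM in the 24 h control, from 59.9 to 78.9 CPM with IFN and from 63.3 to 69.8 CPM with TEPA and IFN. The log2 change was -0.20 with IFN (SE 0.21, adjusted p = 0.477) and -0.55 with IFN in the presence of TEPA (SE 0.21, adjusted p = 0.0983). With the GC trend removed it was called lower in both (-1.03, SE 0.27, adjusted p = 0.00684, and -1.11, SE 0.27, adjusted p = 0.00426, in edgeR), where 32.8% and 29.3% of all genes were called. With the replicate block added CHGA was also called lower with copper (-0.32, adjusted p = 0.00612, where 34% of all genes were called). The same fit called it lower with IFN in the presence of DC (-0.64, adjusted p = 0.00743, where 13% were called), whose libraries the numbers do not pair.

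Around the members, a list of 47 further genes of the same pathway was described by role: tetrahydrobiopterin supply, breakdown, uptake and granule membrane, autoreceptors, granule cargo and processing, copper supply, transcription factors, and the cholinergic counterparts. Of the 47, 35 were tested, and the other 12 had 0 to 83 counts in all libraries together, the dopamine transporter SLC6A3 and the adrenaline-forming enzyme PNMT among them (1 and 78 counts). With IFN 5 of the 35 rose and 4 fell, where 18.8% of all genes were called, and the median log2 change was 0.10 against 0.01 over all genes. Of 12 tested granule cargo and processing genes 1 rose and 4 fell, where 10% of all genes were called higher and 8.8% lower. The genes that fell were the peptide-processing enzyme CPE (-0.66, SE 0.09, adjusted p = 1.11e-05 in edgeR), the granule protein SCG5 (-0.64, SE 0.14), the neuropeptide NPY (-0.58, SE 0.16) and the granule priming factor CADPS (-0.71, SE 0.23). CPE, SCG5 and NPY held in every fit without 1 library, while CADPS was called only without 24 h control 2 and had adjusted p = 0.0553 to 0.112 in the other 5 fits.

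The genes of the list that rose with IFN besides MAOB were ADRA2A, the alpha-2A adrenergic autoreceptor (1.61, SE 0.17, adjusted p = 8.00e-07 in edgeR), VGF, a granule peptide precursor (1.89, SE 0.35), ATOX1, the chaperone that hands copper to the secretory pathway (1.08, SE 0.31), and CYB561, the granule membrane protein that supplies electrons for DBH (0.47, SE 0.12). With the GC trend removed MAOB and ATOX1 kept their calls (4.46 and 1.25). ADRA2A and VGF did not (0.95, adjusted p = 0.0626, and 0.67, adjusted p = 0.0771), and CYB561 turned to -0.08 (adjusted p = 0.75). ATOX1 lost its call without 24 h control 1 or 3 or IFN 1 or 2 (adjusted p = 0.0712, 0.0976, 0.0781 and 0.0932), and so did CYB561 (0.0836, 0.0725, 0.0512 and 0.0741).

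In the other IFN comparisons the list had, of 35 tested, 3 genes higher and 1 lower with DC present, and 4 higher and 4 lower with TEPA present. Of all genes 9.82% were called with DC present (6.16% higher, 3.66% lower) and 14.2% with TEPA present (6.89% lower). MAOB, ADRA2A (1.63 and 1.90) and VGF (1.11 and 1.43) were higher and CPE (-0.49 and -0.61) lower in both. Among the fits without 1 library, the VGF call held with DC only without DC 2 (adjusted p up to 0.255 in the other 5 fits) and was lost with TEPA without TEPA 1 or 3 (0.0717 and 0.0703). Of the 7 alternative fits on whole groups, 3 called VGF and 6 called ADRA2A with DC present. With TEPA present all 7 called both. With TEPA present NPY (-0.75), SCG5 (-0.53) and CADPS (-0.76) were also lower and CYB561 higher (0.38, and -0.01 with the GC trend removed). Of these, CADPS was lost without TEPA 1 or 3 or TEPA with IFN 1 or 3 (adjusted p up to 0.105), and CYB561 without any library but TEPA 2 (up to 0.304). With the block by which these libraries pair, 7 of 34 tested genes of the list were higher and 5 lower, where 30.7% of all genes were called. In that fit CADPS was not called, and ATOX1, PHOX2A and GATA2 were added as higher and PAM and SCG3 as lower.

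TEPA raised 1 of the 35 tested genes of the list, ADRA2A, with and without IFN. Of all genes 1.9% were called with IFN present and 1.06% without it. The libraries with TEPA and IFN had 20.9, 21.1 and 20.0 CPM of ADRA2A against 9.59, 9.70 and 7.79 CPM with IFN, an increase of 1.2 (SE 0.16, adjusted p = 5.94e-04 in edgeR). Without IFN it was 6.10, 4.01 and 6.58 CPM against 2.99, 2.69 and 3.16 CPM (0.92, SE 0.17, adjusted p = 0.00931; 0.052 without TEPA 3, 0.225 with the GC trend removed and 0.0555 with the replicate block by which these libraries pair). That block called 3 other genes of the 34 tested from the list with TEPA in edgeR, where it called 1.78% of all genes. The granule protein SCG2 was lower (-0.63, SE 0.06, adjusted p = 0.00869), and the copper pump ATP7A (0.37, SE 0.07, adjusted p = 0.0455) and the transcription factor GATA2 (0.44, SE 0.08, adjusted p = 0.0478) were higher.

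With copper 1 of the 35 tested genes of the list was called, where 5.85% of all genes were called. It was the granule protein SCG2, which rose from 217, 168 and 164 CPM to 368, 255 and 252 CPM (0.67, SE 0.17, adjusted p = 0.0192 in edgeR). That call was lost without 4 h control 2 or 3 or copper 1 (adjusted p = 0.0692, 0.0539 and 0.077). With the block by which the copper libraries pair, 3 of 34 tested genes of the list were higher (SCG2, VGF and PTPRN) and 1 was lower (GATA2). That fit called 18.3% of all genes. DC gave 0 calls in the list in edgeR with or without IFN, and 0 genes of it were at an unadjusted p under 0.05 in either. Of all genes 0.0205% were called for DC with IFN present and 0.0136% for DC without it.

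**Figure D5:**
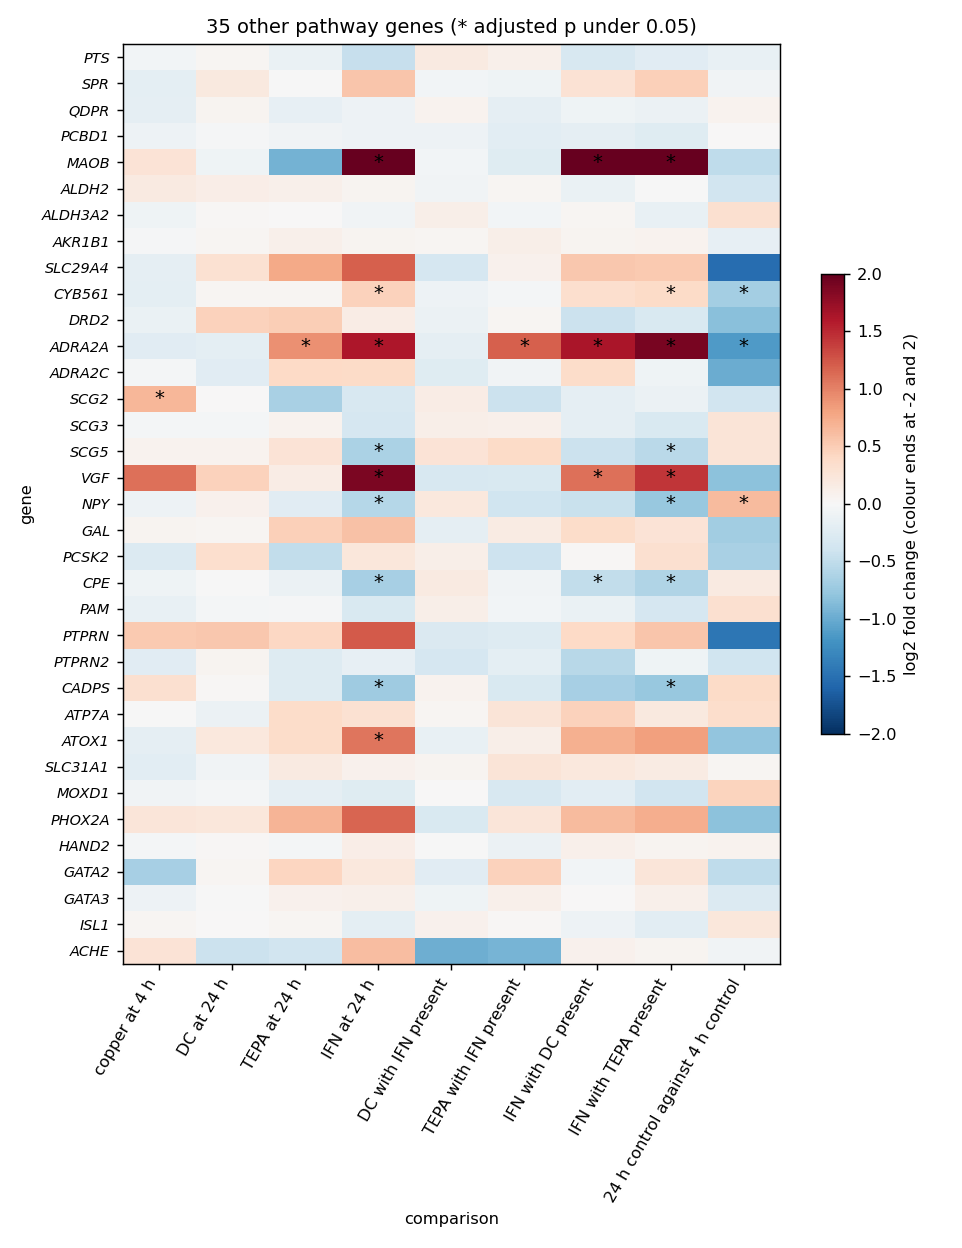
Log2 fold changes (colour, with its ends at -2 and 2) of the 35 tested genes of the list (rows) in each comparison between groups (columns), with a star where the adjusted p is under 0.05. MAOB, at 4.42 to 5.12 in the IFN comparisons, is the strongest entry, and the columns of DC hold no star.

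Untreated cells at 24 h against 4 h gave no call among the members in the edgeR fit over all 24 libraries. DBH had -1.67 (SE 0.64, adjusted p = 0.0939), from 81.3, 341 and 555 CPM to 80.2, 147 and 79.8 CPM, which overlap. DBH was called without 4 h control 1 (-2.18, adjusted p = 0.0102), as was DDC (-0.25, adjusted p = 0.0255), and in DESeq2 (-1.70, adjusted p = 0.0475). The fit without 4 h control 1 called 7375 genes in all, against 1420 in the full fit, and DESeq2 called 18.2% of all genes. In the fit over all 24 libraries the list of further pathway genes had, of 35 tested, 1 gene higher (NPY, 0.63) and 2 lower (ADRA2A, -1.13, and CYB561, -0.67). Of all genes 9.69% were called. NPY lost its call without 24 h control 1 or 3 or 4 h control 2 or 3 (adjusted p = 0.0674, 0.0808, 0.0791 and 0.0701), and with the GC trend removed none of the 3 was called (0.0588 for NPY, 0.223 for ADRA2A and 0.288 for CYB561).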

How the data were processed

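RNA of 24 SH-SY5Y libraries was measured by sequencing of stranded mRNA libraries, per the labels. What the authors deposited are raw counts, whole numbers not normalized, for 26485 gene symbols. They come as 1 table and as 1 list per library, and the 24 lists equal their columns. The submitters' processing notes name STAR 2.5a, RSEM 1.2.31 and hg38. The annotation release and the strand setting are not given in the sources used here. Library totals ran from 24569980 to 35372442 counts, and 6378 genes had no count, which limits precision only for the rarest members; limits of 3 counts cover counting error only.

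Counts were scaled by TMM and filtered with filterByExpr (minimum count 10), which left 14654 genes. A mean per group was fitted over all 24 libraries with edgeR 4.0.16 (quasi-likelihood, 16 residual degrees of freedom, common biological coefficient of variation 0.207) in R 4.3.3, tested for 9 comparisons of groups and 2 interactions, and adjusted over all genes by Benjamini-Hochberg. The fit was tested on simulated data with the same spread for all genes and no GC trend, so that test does not cover the GC trend of these libraries. Alternatives were DESeq2 1.42.0, RLE scaling, no filter, only the libraries compared, a replicate block, removal of each library's GC trend by loess (span 0.4; 93.7% of tested genes had a GC value), both together, and leaving out each library. Correlations with the GC difference used deviations from group means, left out the members when the GC difference was computed, and were permuted within groups 1e+05 times for r and 20000 times for rho.

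Same-numbered libraries were taken as pairs where all 3 correlations of their deviations from group means were above 0.1. This held for copper (0.814, 0.266 and 0.747), DC (0.112, 0.444 and 0.182), TEPA (0.261, 0.468 and 0.173) and IFN in the presence of TEPA (0.231, 0.495 and 0.195). The pairing comes from the same data that the block was then used on, since the labels give the numbers only. Same-numbered libraries can also be alike in the GC difference, which was -0.66, 0.83 and 1.39 with copper and -1.38, 0.68 and 1.41 in the 4 h control. A shared batch is therefore not shown, and what the numbers share was not tested.

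Lengths, GC contents and positions are from GENCODE 29 on GRCh38. Promoters are from a RefSeq table on GRCh38.p14, in which 5 of 10 members matched. A printed stretch is the 250 bases before a start, cut where an exon is annotated with at most 8 exon bases kept. The members and gene lists were chosen with earlier results of these data known. All 10 members are named, as is each gene of the further list called in a comparison. Some genes taken into that list or the marker lists at first are not reported here and were left out of the counts. The 5 genes most like DBH were taken by Pearson's r of group means of log2 CPM among tested genes averaging 1 CPM or more, and none was sought for TH, which was not tested.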

Additional observations from a re-analysis of the deposited data

How the results depend on the processing

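The 99 tested values of members held 15 calls. In 195 alternative values of these, 172 stayed called in the same direction, 23 lost the call and 0 changed direction. Of 1200 alternative values of uncalled ones, 40 were called. Called members by setting, where they moved by more than 1.5 times, were as follows, with the share of all genes called by the same fit. With only the libraries compared copper had 0 (0.438%), IFN 7 (47.8%) and TEPA in the presence of IFN 1 (0.86%). With the GC trend removed TEPA had 2 (9.44%). DESeq2 called 1 for 24 h against 4 h (18.2%). With the replicate block copper had 2 (18.3%), TEPA 2 (1.78%), IFN 7 (51.7%) and IFN with DC present 1 (3.97%), and of these the numbers pair only the libraries of copper and TEPA. With the replicate block and the GC trend removed together copper had 5 (34%), TEPA 5 (17.1%) and 24 h against 4 h had 1 (6.26%). The block added GCH1 for IFN with TEPA present (5 members, 30.7%) and changed no call of a member for DC. CYB561 reversed with the GC trend removed, to -0.0824 with IFN and -0.00578 with IFN in the presence of TEPA, and with the block added, to -0.0968 and -0.00579.

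Leaving out 1 library gave 0 to 2 members for 24 h against 4 h, 1 to 1 for copper, 3 to 4 for IFN, 3 to 4 for IFN with DC, 4 to 5 for IFN with TEPA (GCH1 added without TEPA 2, -0.43, adjusted p = 0.0387 in edgeR), 0 to 2 for TEPA with IFN, and 0 for DC, TEPA, DC with IFN and both interactions. For TEPA with IFN, 0 were called without IFN 3, TEPA with IFN 1 or TEPA with IFN 2, and 1 without IFN 1.

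Counts over all genes moved more. Over the 7 other settings on whole groups IFN ran from 2404 to 7252 (2761 as reported), IFN with DC from 554 to 3396 (1439), IFN with TEPA from 1186 to 4327 (2076), copper from 61 to 4740 (857), TEPA from 0 to 2367 (155), TEPA with IFN from 121 to 4497 (279), DC from 1 to 20 (2), DC with IFN from 0 to 12 (3), 24 h against 4 h from 0 to 3906 (1420), and the interactions with DC and TEPA from 0 to 2 and 0 to 8 (0). With the replicate block they were 2547 for copper, 6 for DC, 247 for TEPA and 4327 for IFN with TEPA. Without 1 library, counts moved by over 1.5 times for TEPA (61 to 82, without 24 h control 1 or 3 or TEPA 1 or 3), IFN (1707 to 1821, without 24 h control 1 or IFN 1 or 2), TEPA with IFN (124 to 175, without IFN 1 or 2 or TEPA with IFN 1 or 2), IFN with TEPA (3456 without TEPA 2) and 24 h against 4 h (7375 without 4 h control 1, and 555 to 643 without 4 h control 2 or 3 or 24 h control 1 or 3). The cause of these moves was not tested. Scaling by RLE moved the median of all genes by under 0.1 on the log2 scale. DDC, SLC18A2 and MAOA with IFN alone and with IFN in the presence of TEPA were called in every setting run. With DC present the unpaired block left SLC18A2 at adjusted p = 0.0554 and MAOA at 0.0711. Depth limits TH, and MAOB in cells without IFN.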
